A study of Mus musculus with 3 samples.

Results

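The subunits of the mitochondrial respiratory chain and ATP synthase that are encoded in the nucleus were examined in adult cardiomyocytes (ACMs) treated with cytokines. They were chosen by name, as protein-coding genes whose symbols begin with Nduf followed by a, b, c, s or v and a digit, with Uqcr, with Cox4 to Cox8 or with Atp5, together with Sdha, Sdhb, Sdhc and Sdhd. The rule gave 88 of the 56748 genes in the count table, and no measured value entered it. Complex I had 37 of them, complex II 4, complex III 8, complex IV 21 and complex V 18. Ndufa4 and its paralog Ndufa4l2 carry a complex I name and were counted with complex IV, where the NDUFA4 protein resides. ACMs were isolated from hearts of wild-type (WT) mice 8 to 10 weeks old and cultured on laminin. They received mouse OSM (10 ng/mL), human IL-6 (10 ng/mL) or vehicle for 16 h, all in serum-free medium that held 0.1% BSA and 10 mM of the contraction inhibitor BDM. OSM (oncostatin M) and IL-6 (interleukin-6) are cytokines whose receptors share the gp130 chain. RNA was pooled before polyA selection, and each of the 3 conditions gave 1 library, so there was no replicate spread, no test and no P-value, and every difference below is between libraries.

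Complex I takes electrons from NADH and complex II, succinate dehydrogenase, takes them from succinate. Both pass them through ubiquinone to complex III, which hands them to cytochrome c, and complex IV (cytochrome c oxidase) gives them to oxygen. Complexes I, III and IV pump protons, and complex V, the ATP synthase, uses the gradient to make ATP. Cardiomyocytes hold a very large mitochondrial mass, and the heart uses its own isoforms of several complex IV subunits. Complexes I, III, IV and V also contain subunits made from mitochondrial DNA, so that both genomes must supply a finished complex.

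The libraries held 24939980 (vehicle), 26362446 (IL-6) and 30773001 (OSM) counts assigned to genes. The labelled cell type was checked against marker lists. The 7 cardiomyocyte markers summed to 5814, 5897 and 7995 FPKM (fragments per kilobase of gene, scaled to library size, so a level per length) with vehicle, IL-6 and OSM. The 6 endothelial markers summed to between 6.40 and 6.87 FPKM, the 7 fibroblast markers to between 0.691 and 1.03 FPKM and the 6 smooth muscle and pericyte markers to between 13.4 and 15.8 FPKM. The 5 macrophage markers summed to 13.4, 14.2 and 39.1 FPKM, most of it from Cd68 (382, 448 and 1419 counts), a lysosomal protein. Csf1r had 187, 166 and 209 counts and Adgre1 had 8, 0 and 6, while Ptprc and Fcgr1 had 0 counts in every library. The part of other cell types in the results was not tested. In pooled RNA, fewer cells of a type and less RNA per cell cannot be told apart.

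Subunit transcripts were abundant in all 3 libraries. The 88 genes took 3.97% of all counts with vehicle (95% Clopper-Pearson interval 3.96 to 3.98), 4.06% with IL-6 (4.05 to 4.06) and 5.10% with OSM (5.09 to 5.11). Intervals here and below cover counting error only. The median level over the 88 genes was 149, 156 and 241 FPKM, in that order of libraries, and 66, 66 and 70 genes reached 100 FPKM. The OSM library was thus the highest, and the vehicle and IL-6 libraries lay close together. Of the 88 genes, 4 had too few counts to be compared (fewer than 10 over a pair of libraries). Cox8c and Ndufb11b, paralogs of subunit genes, and a second entry named Atp5o had 0 counts in every library, which allows a level of up to 0.120 CPM (counts scaled to library size) with vehicle, and Cox7b2 had 4, 1 and 0 counts. The other 84 genes were compared in every pair of libraries.

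**Figure D1:**
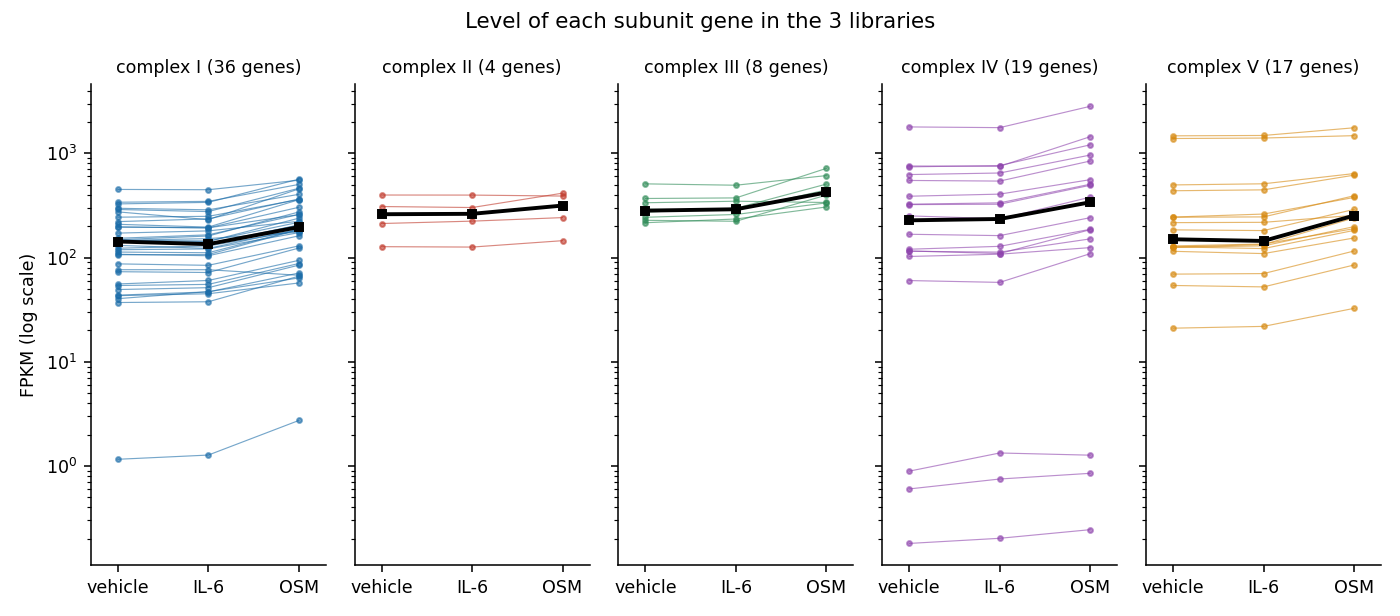
Level of each subunit gene in FPKM (log axis) in the vehicle, IL-6 and OSM libraries, with 1 panel per complex. Thin lines are the genes with counts in all 3 libraries and black squares are the median of the plotted genes, which is highest with OSM in every panel.

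OSM was compared with vehicle to ask how the cytokine altered transcript levels of the chain. Most subunit genes were modestly higher with OSM. The log2 ratio of scaled counts was above 0 for 81 of 84 genes and below 0 for 3, with a median of 0.61, quartiles of 0.43 and 0.71, and a range from -0.18 (Ndufs1) to 1.23 (Ndufb2). No gene was called beyond 2-fold, that is, with its whole 95% interval past 2-fold, although 1 gene lay past it by its ratio alone. By that rule 3.7% of the 15537 genes compared were higher and 5.46% were lower. Beyond 1.5-fold, 32 subunit genes (38.1%) were higher and 0 lower. The background for that fold was 8.55% higher and 12% lower. The median over all compared genes was -0.0014, and 33.1% of them had intervals wholly above no change and 33.4% wholly below. Among the 84 subunit genes 78 (92.9%) lay wholly above. Intervals narrow as counts rise, and genes were compared from 10 counts over the pair upward. Such shares, here and below, therefore also depend on depth, which was not matched. The intervals of Ndufs1 and Sdha lay wholly below no change, and those of Uqcrc2, Cox4i2, Cox6b2 and Ndufa4l2 held it.

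IL-6 was compared with the same vehicle library. The median log2 ratio of the 84 genes was 0.016, with 48 above 0 and 36 below. None was called beyond 1.5-fold in either direction, against 2.95% of 15472 compared genes called higher and 2.88% lower. No subunit gene was called beyond 2-fold, where the shares of all genes were 1.77% higher and 1.74% lower. Intervals lay wholly above no change for 29 genes and wholly below for 14, against 19.6% and 19.1% of all compared genes. Among genes with a mean of at least 100 counts, the ratios ran from -0.25 for Ndufa2 (3970 counts with vehicle and 3583 with IL-6) to 0.22 for Ndufb1 (1176 and 1470 counts). Ndufa2 and Ndufb1 are both small accessory subunits of complex I. OSM set against IL-6 gave a median log2 ratio of 0.59, with 34 genes higher beyond 1.5-fold and 0 lower. The shares among 15544 compared genes were 8.76% and 11.9%. Beyond 2-fold it called 0 subunit genes, beside 4.24% (higher) and 5.44% (lower) in the background. Intervals lay wholly above no change for 78 subunit genes and wholly below for 3, beside 33.2% and 33.2% of all genes. The OSM library enters this comparison and that with vehicle, so the 2 are not independent.

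**Figure D2:**
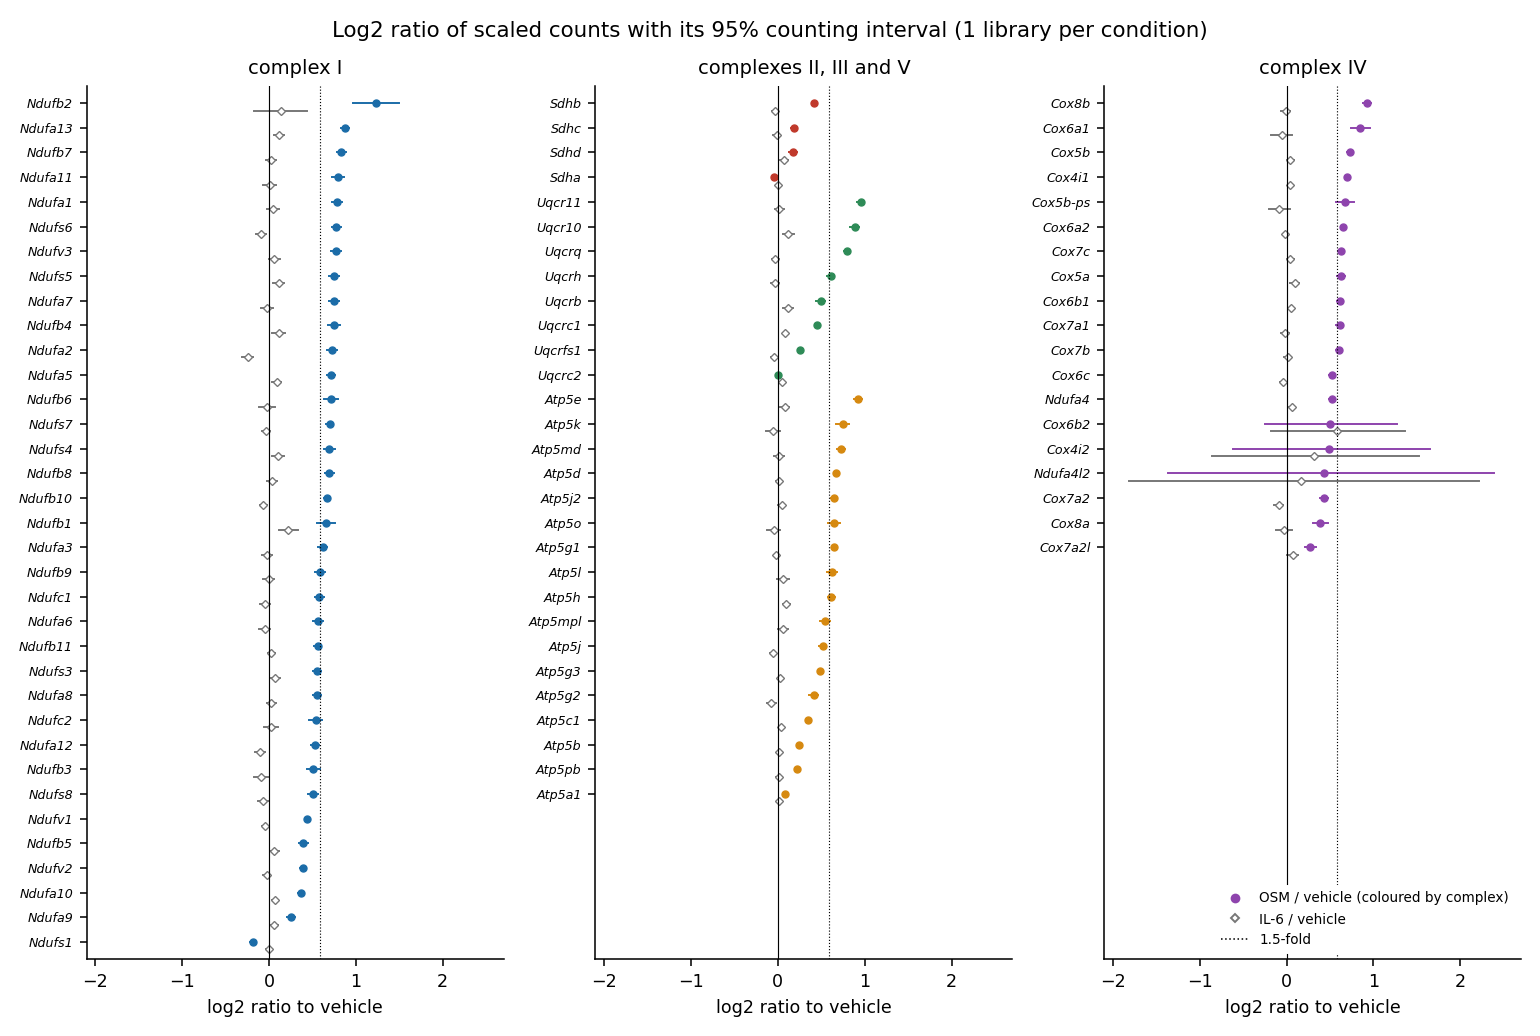
Log2 ratio of TMM-scaled counts to vehicle for the 84 compared subunit genes except 1 that is not shown, ordered by the OSM ratio within each complex. Filled circles are OSM and open diamonds IL-6, bars are 95% counting intervals and the dotted line is 1.5-fold. Most OSM points sit between 0.3 and 0.9 while IL-6 points lie nearer 0, the farthest being low-count isoforms with wide intervals, Ndufa2 at -0.25 and Ndufb1 at 0.22, and Ndufs1, Sdha and Uqcrc2 stay at or below 0 with OSM.

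In complex I the core subunits, which carry the flavin and iron-sulfur centers and occur in bacteria too, differed less than the accessory subunits that surround them. The 29 accessory genes had a median log2 ratio (OSM to vehicle) of 0.69, with 16 higher beyond 1.5-fold, and the 7 core genes a median of 0.44, with 1 higher. For this and the other complexes, the share of all compared genes higher beyond 1.5-fold was 8.55%. Ndufs1, the largest core subunit, had 15636 counts with vehicle, 16746 with IL-6 and 16335 with OSM, a log2 ratio of -0.18 (-0.22 to -0.15) for OSM. Its level per length was 76.4, 76.4 and 67.6 FPKM, the lowest being with OSM. Ndufs7, which bears the last iron-sulfur cluster before ubiquinone, had 146, 143 and 238 FPKM and was the core gene called beyond 1.5-fold, with a log2 ratio of 0.70 (0.65 to 0.74). The other core genes lay between these. Ndufs3 and Ndufs8, an iron-sulfur protein, had ratios of 0.55 and 0.51. The subunits of the NADH-oxidizing tip, Ndufv1, which binds the flavin, and Ndufv2, had ratios of 0.44 and 0.39.

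Among the accessory genes of complex I the highest ratio belonged to Ndufb2, with 165, 194 and 459 counts and a log2 ratio of 1.23 (0.97 to 1.49). Its level was low for the family, at 1.16, 1.27 and 2.73 FPKM. Ndufb2 (mm39, chr6:39569508-39580316, plus strand) overlaps another protein-coding entry on its own strand that had 0 counts, and reads that fall on 2 genes can go uncounted, so this value is uncertain. Ndufa13, also known as GRIM-19, followed with 148, 161 and 274 FPKM and a ratio of 0.87 (0.82 to 0.93). Ndufb7 had 37.0, 37.6 and 66.2 FPKM and a ratio of 0.83 (0.78 to 0.88). The OSM library was the highest of the 3 for each of them. At the low end of the accessory genes, Ndufa9, which binds a nucleotide cofactor, had a ratio of 0.25 (0.21 to 0.30).

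Complex II differed least. Sdha, the flavoprotein that oxidizes succinate, had 398, 398 and 389 FPKM with vehicle, IL-6 and OSM, and a log2 ratio of -0.04 (-0.06 to -0.02) for OSM. Sdhb, the iron-sulfur subunit, was the highest of the 4 at 0.42 (0.39 to 0.45), with 309, 302 and 415 FPKM. The membrane anchors Sdhc and Sdhd both had a ratio of 0.18. None of the 4 was called beyond 1.5-fold, but 4 genes are too few to set against the 8.55% of all compared genes called higher. With IL-6 they lay between -0.03 and 0.08. Complex II is the complex with no mitochondrially encoded subunit.

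Complex III was split by the kind of subunit. The 5 small accessory genes had a median log2 ratio of 0.80 for OSM to vehicle, with 3 higher beyond 1.5-fold. Uqcr11 had 369, 374 and 718 FPKM and a ratio of 0.95 (0.91 to 1.00). Uqcr10 had 273, 297 and 507 FPKM and a ratio of 0.88, and Uqcrq, a ubiquinone-binding subunit, had 228, 223 and 397 FPKM and a ratio of 0.80. The OSM library stood well above the other two for these genes. Uqcrh and Uqcrb had ratios of 0.61 and 0.49. The large core proteins differed from each other, with Uqcrc1 at 0.45 (244, 259 and 335 FPKM) and Uqcrc2 at no difference (336, 347 and 338 FPKM, interval -0.03 to 0.03). Uqcrfs1, the Rieske iron-sulfur protein, had 510, 495 and 612 FPKM and a ratio of 0.26 (0.23 to 0.28).

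Complex IV had the most abundant subunit gene, the heart isoform Cox6a2, at 1793, 1765 and 2827 FPKM. Its log2 ratio for OSM was 0.65 (0.63 to 0.67). Cox8b, the heart isoform of subunit VIII, had 756, 751 and 1445 FPKM and the highest ratio of the complex, 0.93 (0.88 to 0.97). Cox4i1, a regulatory subunit that binds ATP, had 742, 764 and 1207 FPKM and a ratio of 0.69. Cox6b1 (626, 648 and 963 FPKM), Cox6c (167, 162 and 241 FPKM), Cox7b (322, 325 and 494 FPKM) and Cox7c (325, 335 and 505 FPKM) encode further small subunits. Their ratios were 0.61, 0.52, 0.61 and 0.63. Ndufa4 stood at 388, 406 and 559 FPKM, with a ratio of 0.52. Over the 19 compared genes the median was 0.61 and 6 were higher beyond 1.5-fold. Cox7a2l, which takes part in joining complexes III and IV into supercomplexes, was the lowest with 102, 108 and 125 FPKM and a ratio of 0.27 (0.21 to 0.33). Cox5b-ps, whose annotation calls it a pseudogene although its biotype is protein-coding, had 1142, 1155 and 2155 counts, and reads from it and from Cox5b cannot be separated with confidence.

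**Figure D3:**
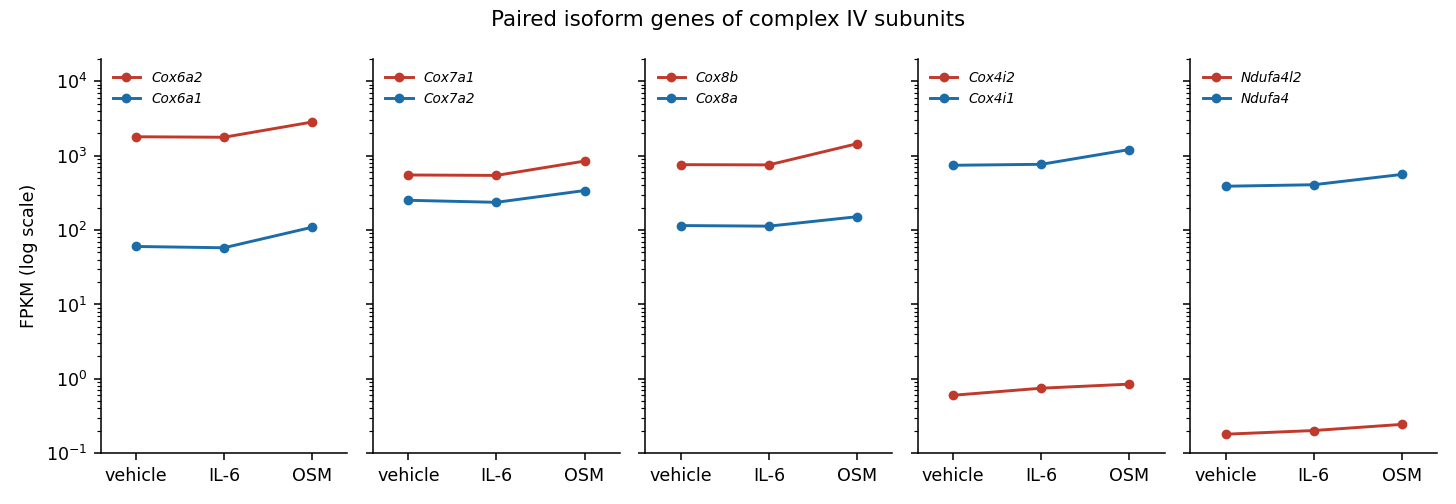
FPKM (log axis) of 5 pairs of isoform genes of complex IV in the vehicle, IL-6 and OSM libraries, with lines joining the libraries of each gene. The heart isoforms Cox6a2, Cox7a1 and Cox8b lie above their partners, Cox4i2 and Ndufa4l2 lie below 1 FPKM, and all pairs keep their order in the 3 libraries. FPKM rests on the deposited gene length, and the distance between Cox8b and Cox8a depends on the length used.

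Paired isoforms gave a comparison that needs no scaling between libraries. Cox8b made up 86.8%, 86.9% and 90.5% of the summed FPKM of Cox8b and Cox8a with vehicle, IL-6 and OSM. The Cox8b to Cox8a ratio was 1.45 times higher with OSM than with vehicle (95% exact conditional interval 1.36 to 1.55). With IL-6 it was 1.01 times that with vehicle (0.940 to 1.09), and the Cox6a2 and Cox7a1 pairs gave 1.02 (0.940 to 1.12) and 1.05 (1.001 to 1.102). Cox7a1, the heart isoform of subunit VIIa, made up 68.6%, 69.7% and 71.3% of its pair with Cox7a2, and that ratio was 1.14 times higher with OSM (1.09 to 1.19). Cox6a2 ran the other way, with 96.8%, 96.8% and 96.3% of its pair with Cox6a1 and a ratio 0.870 times that with vehicle (0.807 to 0.937). The heart share was thus higher with OSM in 2 of the 3 heart pairs and lower in the other. Gene lengths are 360 bases for Cox8b and 619 for Cox8a, and 535 for Cox7a1 and 944 for Cox7a2. The canonical transcripts of Cox8b and Cox8a have 2149 and 564 bases. The Cox8b share of summed FPKM therefore depends on the length used, while the change in its ratio to Cox8a between libraries does not. Cox6a2 and Cox6a1 have 680 and 702 bases. Whether the trend with length described below enters these shares was not tested. Cox4i2, a lung and hypoxia-linked isoform, had 12, 16 and 20 counts beside 29090, 32096 and 55873 for Cox4i1. Ndufa4l2, which is induced by hypoxia in many cells, had 5, 6 and 8 counts beside 13546, 15200 and 23050 for Ndufa4. At these counts the interval of either ratio held 1 in every comparison. Cox6b2, a testis isoform, had 25, 40 and 42 counts.

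In complex V the lowest log2 ratio belonged to F1, which holds the catalytic head and the central stalk, and so did the highest. Atp5b and Atp5a1, the beta and alpha subunits of the head, were the most abundant genes of the complex, at 1473, 1485 and 1759 FPKM and at 1388, 1403 and 1478 FPKM. Their log2 ratios for OSM were 0.25 (0.24 to 0.26) and 0.08 (0.07 to 0.09). Atp5c1, the central stalk subunit gamma, had a ratio of 0.35. Atp5e, the small epsilon subunit, had 126, 133 and 240 FPKM and the highest ratio of the complex, 0.92 (0.88 to 0.97). Next came Atp5k, a membrane subunit, at 150, 144 and 253 FPKM and 0.75, and Atp5md, at 69.3, 70.2 and 115 FPKM and 0.73. In the peripheral stalk, Atp5pb was lowest at 216, 218 and 254 FPKM and 0.22. The c ring, the rotor that protons turn, is made from 3 genes that give the same mature protein. Atp5g3 held 59.4%, 60.6% and 58.2% of their summed FPKM, Atp5g1 25.03%, 24.6% and 27.3%, and Atp5g2 15.6%, 14.8% and 14.5%. By counts, Atp5g3 had 24144, 26384 and 40214, Atp5g1 22912, 24161 and 42471, and Atp5g2 4863, 4955 and 7706. The gene length behind FPKM is 4912 bases for Atp5g1 and 2181 bases for Atp5g3. Their canonical transcripts have 612 and 988 bases, so the order of these genes depends on the length used. The OSM ratios of Atp5g3, Atp5g1 and Atp5g2 were 0.49, 0.64 and 0.42, and Atp5g1 was the only c ring gene called beyond 1.5-fold. Atpif1, the inhibitor of the synthase, is not among the 88 genes and had 762, 947 and 1470 counts, with a ratio of 0.70 (0.57 to 0.83).

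Gene length ran alongside these differences. Subunit genes are short, with a median length of 1522.5 bases (the total exon length in the deposited table) and a median coding length of 417 bases, against 4548 and 1407 bases for the other compared protein-coding genes. In the OSM to vehicle comparison, the log2 ratio of those other genes was lower the longer the gene, from a median of 0.44 in the shortest eighth (204 to 2018 bases) to -0.55 in the longest. Of the 84 subunit genes, 55 were in the shortest eighth, with a median of 0.62. In that eighth, 24 of the 55 (43.6%) were higher beyond 1.5-fold, and so were 298 of 1534 other genes (19.4%). Across genes, Spearman's rho of the ratio with gene length was -0.32 over the 84 subunit genes and -0.39 over 12424 others. With coding length it was -0.55 and -0.37 (12394 others), and with the length of the canonical transcript -0.31 and -0.42 (12416 others). These genes share their libraries and are not replicates, so rho is given as a description. IL-6 to vehicle showed little of this trend, with other genes at a median of 0.01 in the shortest eighth and -0.029 in the longest.

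Each subunit gene was then set against other protein-coding genes within 1.1 times its length. The median difference was 0.18 for OSM to vehicle, with 71 genes above their reference median and 13 below. In 30 of the 84 the ratio lay above the upper quartile of the reference, in 1 below the lower quartile and in 53 between. The reference held a median of 392.5 genes, but only 6 for the shortest gene, Cox8b. With coding length in place of gene length the median difference was 0.23, with 77 above and 7 below. With a wider window of gene length together with a mean FPKM within 2 times, a reference that could be had for 75 genes, it was 0.096. For IL-6 to vehicle the length-matched difference was -5.6e-05, with 42 above and 42 below. For OSM to IL-6 it was 0.20. The log2 ratio of the subunit genes, at a median of 0.61, thus stood beside a reference median of 0.41 for other genes of their length. The cause of the trend with length was not tested.

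**Figure D4:**
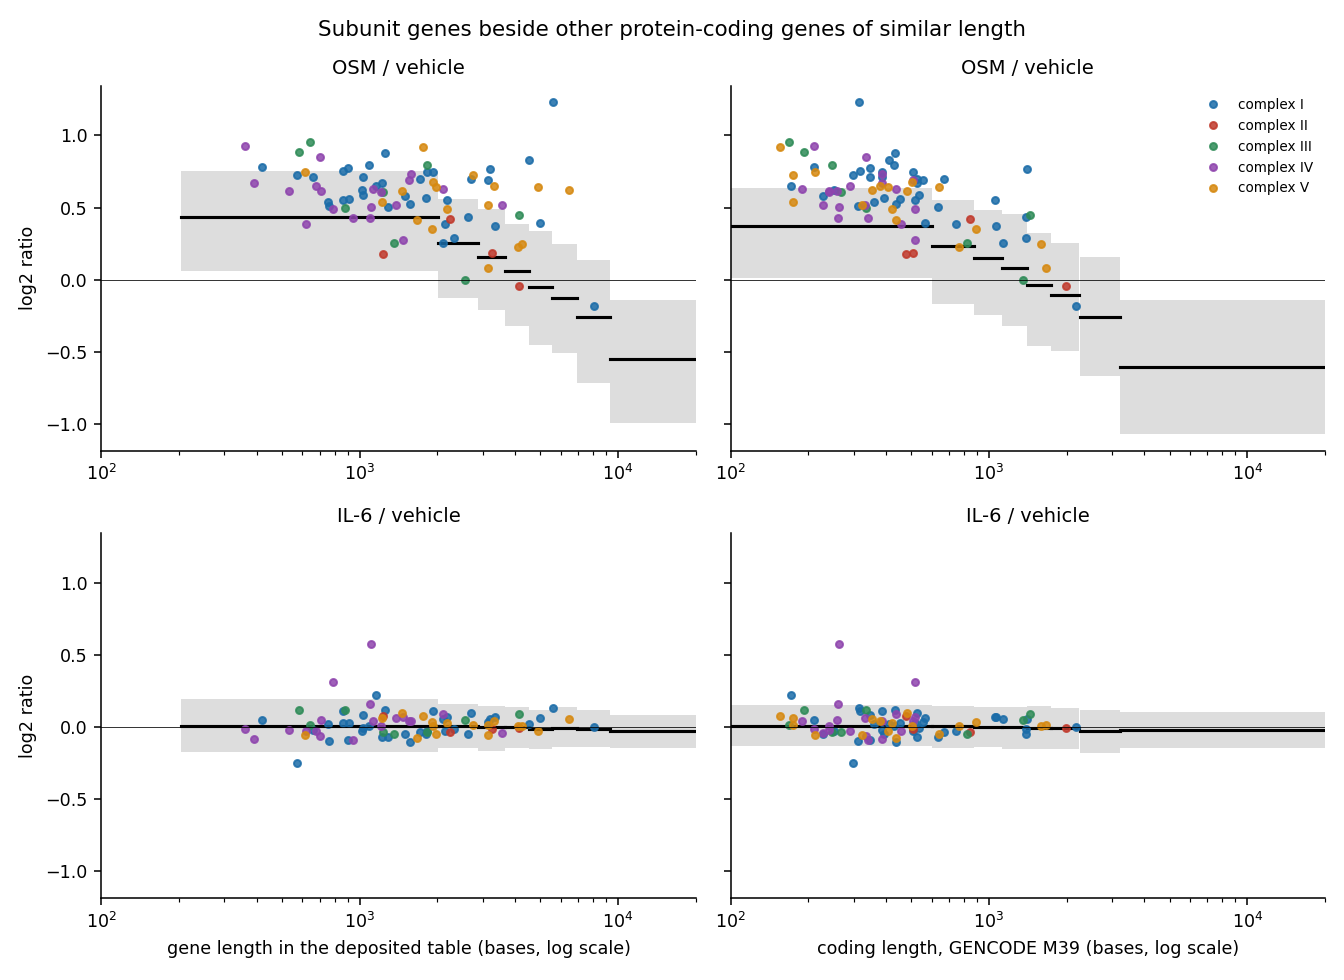
Log2 ratio of each subunit gene (points, coloured by complex) against gene length (left) and coding length (right) on log axes, for OSM to vehicle (top) and IL-6 to vehicle (bottom). Black lines are the medians and grey boxes the quartiles of the other protein-coding genes in 8 equal-sized length classes, the longest being cut at the axis. With OSM the medians fall from 0.44 to -0.55 by gene length and most points lie above them, while with IL-6 points and medians lie near 0.

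The contrasts within complexes depended on the length used. In complex I, accessory genes (median ratio 0.69) stood 0.21 and core genes (0.44) stood 0.09 above others of their gene length. Against others of their coding length, a reference chosen after seeing the data, the medians were 0.31 and 0.28. The median coding length is 411 bases in the accessory and 1059 bases in the core genes. Ndufs1, with a coding length of 2181 bases, differed from genes of its coding length by -0.01. In complex III, the accessory genes stood 0.29 above genes of their coding length, Uqcrc1 0.47 above and Uqcrfs1 0.07 above, while Uqcrc2 differed by -0.02. Against others of their gene length the accessory genes differed by 0.20, Uqcrc1 by 0.41, Uqcrfs1 by -0.20 and Uqcrc2 by -0.22. In complex V the median ratio was lowest for F1 (0.35), the head with the central stalk. Against genes of the same coding length its median difference was 0.30. The membrane part stood at 0.24, the peripheral stalk at 0.18 and the c ring at 0.08. The order differed against genes of the same gene length, where F1 stood at 0.21. The membrane part then stood at 0.50, the peripheral stalk at 0.25 and the c ring at 0.20. Complex II had the lowest median of the 5 complexes, with Sdhd at -0.18, Sdhc at -0.15, Sdha at 0.08 and Sdhb at 0.24 against genes of the same coding length. Against genes of the same gene length, Sdhd stood at -0.31, Sdhc at 0.05, Sdha at -0.09 and Sdhb at 0.16. The longest-coding group of subunits (9 genes, 1359 to 2181 bases) had a median ratio of 0.25, against -0.06 for 3246 other genes of that range.

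Other genes of the pathway did not all follow. The 3 partners with other names, Cyc1 (cytochrome c1), Cycs (cytochrome c) and Ndufab1 (the mitochondrial acyl carrier protein), had log2 ratios of 0.47, 0.35 and 0.33 for OSM to vehicle. The 13 subunits encoded in mitochondrial DNA took 16.0%, 14.8% and 12.2% of all counts. Their ratios for OSM had a median of -0.29, with 10 intervals wholly below no change and 2 wholly above, beside 33.4% and 33.1% of all compared genes. Many of these genes have very high counts and so very narrow intervals. Nuclear subunit counts per 100 mitochondrially encoded counts were 24.9, 27.4 and 41.9 in the vehicle, IL-6 and OSM libraries. With OSM, mt-Nd5 (453315, 464744 and 226261 counts) and mt-Nd4l (1442, 1947 and 380 counts), both of complex I, were lower beyond 2-fold, at -1.25 and -2.17. Of all compared genes, 5.46% were lower beyond that fold. mt-Co3, of complex IV, was higher at 0.76 (21324, 30614 and 42843 counts). Mitochondrial genes abut and overlap, and whether the counting used the strand is not given in the sources used here, so these values are uncertain. With IL-6 the 13 genes had a median of -0.14 and ran from -1.22 (mt-Atp8, 50 and 23 counts) to 0.68 (mt-Nd3, 2249 and 3863 counts).

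Of 54 assembly factors, which build the complexes without staying in them, 52 were compared and their median ratio for OSM to vehicle was 0.21. In 28 the interval lay wholly above no change and in 10 wholly below, with 4 higher beyond 1.5-fold and 0 lower. All compared genes gave 33.1% above and 33.4% below no change, and 8.55% higher beyond 1.5-fold, so that 4 of 52 is near the background. Pet100 (84, 125 and 322 counts, ratio 1.69), needed for complex IV, and Fmc1 (634, 879 and 1696 counts, ratio 1.17), needed for the ATP synthase, were higher beyond 2-fold. Beyond 2-fold 3.7% of all compared genes were higher, so 2 of 52 is near the background too. The assembly factors were not set against genes of their length. Uqcc2 (1556, 1639 and 3172 counts, ratio 0.78) and Coa4 (199, 293 and 430 counts, ratio 0.86) were higher beyond 1.5-fold. Coa5 was the most abundant of those lower, with 6106, 6707 and 4818 counts and a ratio of -0.59.

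The 16 transcriptional regulators of mitochondrial genes had a median ratio of -0.25. Of these, 3 were lower beyond 2-fold and 0 higher, beside 5.46% and 3.7% of all compared genes. The regulator genes are 2804 (Tfb2m) to 10282 (Nrf1) bases long and were not set against genes of their length. Other protein-coding genes had medians from 0.26 in the eighth of 2019 to 2871 bases to -0.55 in the longest eighth. In the eighth that holds Ppargc1a and Esrrg (5574 to 6949 bases) the median was -0.12. Ppargc1a, the coactivator PGC-1alpha, had 1035, 937 and 351 counts and a ratio of -1.81 (-1.99 to -1.63). Esrrg, an estrogen-related receptor, had 1278, 1402 and 306 counts and a ratio of -2.31 (-2.49 to -2.13). Ppara, a receptor that drives fatty acid oxidation genes, had 300, 307 and 103 counts and a ratio of -1.79 (-2.13 to -1.46). For all 3 genes the OSM library was the low one. The vehicle and IL-6 libraries were close for Esrrg and Ppara, with IL-6 to vehicle ratios of 0.03 and -0.07. For Ppargc1a that ratio was -0.24 (-0.37 to -0.11). Over the 16 regulators, intervals lay wholly above no change for 3 and wholly below for 8, beside 33.1% and 33.4% of all compared genes. Among them, Nrf1 (0.29) and Tfam (0.23), regulators of subunit genes and of mitochondrial DNA, were higher with intervals above no change. Gabpa (-0.43) and Perm1 (-0.67) were lower.

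**Figure D5:**
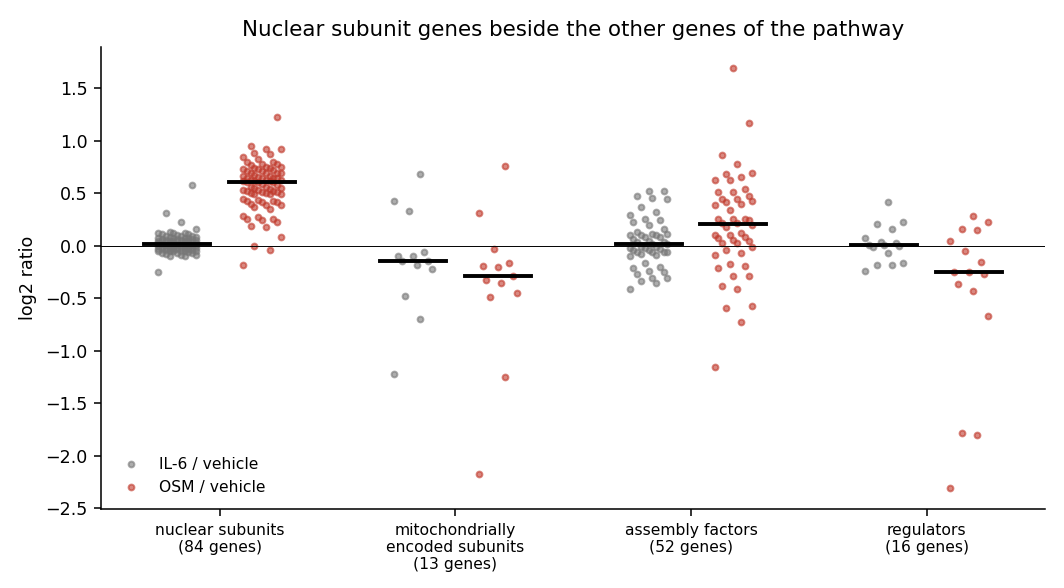
Log2 ratio to vehicle of the 84 nuclear subunit genes beside 13 mitochondrially encoded subunits, 52 assembly factors and 16 regulators, with each point a gene and bars the group medians. For OSM (red) the medians are 0.61, -0.29, 0.21 and -0.25, and for IL-6 (grey) all medians lie between -0.14 and 0.02. The groups are not matched for gene length.

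Promoters were read from RefSeq (GRCm38.p6, 250 bases before to 50 after the start), which held 69 of the 88 genes. Each motif was sought on both strands. The ETS core CCGGAAG, bound by GABPA, was in 17 promoters (24.6%, against 9.93% of 27025 genes), AAGATGGC (YY1) in 10 (14.5%, against 3.19%), the NRF1 palindrome (capitals in the NRF1 windows) in 5 (7.25%, against 1.07%), and TCAAGGTCA (estrogen-related receptors) in 2 (2.90%, against 0.466%). TTCNNNGAA, the letters that STAT factors bind, was in 5 (7.25%, against 9.55%). The 27025 genes are all those of the promoter table and were not matched to the subunit genes for expression. A match is a description of letters and not a bound site. The following windows show genes at the high and the low end of the OSM ratios, with the motif in capitals on the strand of the gene, and then the NRF1, YY1 and receptor motifs.
Uqcr11 ETS: ctctcctccCCGGAAGtagatgtcaa
Ndufb7 ETS: ctagatgacCCGGAAGacactgaagg
Cox6a1 ETS: cccatttccgCTTCCGGcgcgccggt
Sdhd ETS: gtctcctgcCTTCCGGttcacgcttc
Atp5k NRF1: tcactgcgGCGCATGCGCctttctgg
Cox6a1 NRF1: ggaacgggGCGCATGCGCgctctcgc
Atp5j YY1: agtgtaggaAAGATGGCggagtctta
Atp5g3 estrogen-related receptor: ttacaaagTGACCTTGAgcgtcttcc

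The windows lie at chr10:80406871-80406896 (minus strand) for Uqcr11, chr8:83566729-83566754 (plus) for Ndufb7, chr5:115348959-115348984 and chr5:115349103-115349128 (minus) for Cox6a1, chr9:50603879-50603904 (minus) for Sdhd, chr5:108434432-108434457 (minus) for Atp5k, chr16:84835048-84835073 (minus) for Atp5j and chr2:73911361-73911386 (minus) for Atp5g3. The ETS letters thus stood before Uqcr11, at 0.95, and before Sdhd, at 0.18. The 17 genes with them had a median log2 ratio (OSM to vehicle) of 0.62, and the 51 compared genes of the promoter table without them had a median of 0.61. For YY1 the medians were 0.63 with and 0.61 without, and for NRF1 0.75 (5 genes) and 0.61.

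Copies of subunit genes limit some of these values. The coding sequence of 17 of the 88 genes matched elsewhere in the genome (GRCm39) at 97% identity or more over more than 50% of its length, and for 15 over more than 90%, among them Uqcr11, Cox5b, Cox7c, Atp5g1, Atp5g2 and Atp5l. The median OSM ratio was 0.63 for the 17 and 0.60 for the 62 compared genes with no match of any length at that identity. In addition, 41 of the 88 genes overlap the span of another gene, 12 of them on the same strand.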

How the data were processed

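Gene expression was measured by RNAseq in 1 library per condition, each from pooled RNA of cultured ACMs. Raw counts per gene were deposited by the authors, as were FPKM values, which equal the count divided by gene length and by 1 constant per library. Per the submitters' processing notes, reads were handled with fastp, HISAT2 2.2.1, featureCounts 2.0.6 and edgeR 4.0.16 on mm39. The paper names other versions of the counter and of edgeR, and the strand setting is not given in the sources used here.

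From the counts, TMM factors were computed for each pair of libraries (edgeR 4.0.16, R 4.3.3) over genes with at least 10 counts. Log2 ratios compare scaled counts. Their intervals (95%, Clopper-Pearson) treat the count in one library as a binomial draw from the total of both. Calls required both ends of an interval to be past 1.5-fold or 2-fold on the same side. Such calls compare libraries, not conditions. At this depth the subunit genes' intervals reached a median of 0.046 to either side for OSM to vehicle. Calls and the length reference were tested on simulated data. Coding lengths came from GENCODE M39, and copies from blastn 2.17.0. Scaling, count filter, prior count and length reference were varied (closing section).

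The genes and lists were chosen with earlier results of these data known. Named genes were the 3 highest and 3 lowest per complex and comparison (mean of at least 100 counts), those called beyond 2-fold, the 5 most abundant, the isoform families, core subunits and Sdh genes, and called members of the other lists, not all of which are printed, 1 core gene being not reported here. Further genes, among them Coa5, Nrf1, Tfam, Gabpa and Perm1, were named after their values were seen.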

Additional observations from a re-analysis of the deposited data

How the results depend on the processing

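With 1 library per condition, no replicate could be left out, and the spread between cultures is unknown. No paired analysis was possible because each condition had 1 library. Of 174 alternative values for the main results, 156 stayed within the counting interval or within 1.5 times the count. Many of the 156 were counts of calls that were 0 in the main setting and stayed 0. No median ratio or length-matched difference of the 2 OSM comparisons changed sign. The length-matched difference for IL-6 to vehicle, near 0, ran from -0.016 to 0.014. Scaling by total counts moved the median log2 ratio to 0.55 for OSM to vehicle and to 0.51 for OSM to IL-6. It left 24 genes (from 32) higher beyond 1.5-fold in the former and 18 in the latter. By the ratio alone, 1 gene lay higher beyond 2-fold in either comparison. The difference from genes of similar length was 0.096 (OSM to vehicle) and 0.117 (OSM to IL-6) with a wider length window together with FPKM within 2 times. Chosen after seeing the data, coding length gave 0.23 for OSM to vehicle and canonical transcript length 0.145 for OSM to IL-6. Without the length correction, isoform shares in the vehicle, IL-6 and OSM libraries were 55.4%, 56.6% and 58.5% for Cox7a1, 79.3%, 79.5% and 84.8% for Cox8b, and 0.0412%, 0.0498% and 0.0358% for Cox4i2. The cause was not tested. DESeq2 1.42.0 factors moved every ratio by 0.0022 or less. Low counts limit Cox4i2, Cox6b2 and Ndufa4l2.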

Other observations

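The 7 cardiomyocyte markers, which are not subunits of the chain, had unequal log2 ratios in the OSM library. Tnni3 (troponin I), with 1258, 1306 and 2020 FPKM in the vehicle, IL-6 and OSM libraries, had a log2 ratio of 0.68 for OSM to vehicle. Myl2 (ventricular myosin light chain) had 0.61 and Tnnt2 (troponin T) 0.41, and Actn2, an actin-binding protein of the Z-disc, 0.10. Myh6, the heavy chain of cardiac myosin, had -0.05, and Ryr2, the calcium release channel, -1.53. Pln (phospholamban), which like Ryr2 belongs to the sarcoplasmic reticulum, had -0.08. Any relation with length was not tested in them.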
